A study of Mus musculus with 30 samples.

Results

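The salivary glands of NOD.H-2h4 mice given an antibody against CD40L were compared at week 24 with those of mice given a control antibody and examined at week 8. The comparison takes 10 of the 30 arrays of the series, 5 labelled as anti-CD40L at week 24 and 5 labelled as control IgG at week 8, and they were chosen by these labels alone. All mice were females of the autoimmune strain NOD.H-2h4, with no other genetic change named in the labels. Each received 1 intraperitoneal dose of 20 mg/kg when 4 weeks old, of anti-CD40L or of a human IgG1 isotype control antibody, and weeks 8 and 24 are ages. RNA of the total salivary gland was hybridised to Affymetrix whole-genome mouse arrays. The other 4 groups of 5 arrays were week 8 after anti-CD40L, week 16 after either antibody, and week 24 after the control antibody. All 30 arrays entered the fit, so that the spread was estimated from all of them. The question is which immune and gland transcripts of old treated glands stood at the level of young control glands. The groups differ in treatment and in age, and the part of each in a difference cannot be told apart. Below, control arrays are control antibody at week 8, treated arrays are anti-CD40L at week 24, and old controls are control antibody at week 24.

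CD40L, which activated helper T cells display, is the ligand of CD40 on B cells, dendritic cells and macrophages. Its signal runs through TRAF adaptors to both arms of the NF-kB pathway and supports germinal centres, class switching and B cell survival. In salivary gland autoimmunity lymphocytes gather around the ducts, and B cells, T cells and plasma cells can form follicle-like aggregates there. The normal gland also holds plasma cells that make dimeric IgA, which the duct and acinar cells carry into saliva. The glands themselves consist of serous and mucous acini, striated, granular and excretory ducts, and contractile myoepithelial cells. Whole glands were measured, so fewer cells of a type and less RNA per cell cannot be told apart.

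The control arrays differed from the treated arrays in a measure of RNA quality, and this bears on the results below. This measure is the signal of 3' minus 5' probe sets for beta-actin and Gapdh. It grows as RNA is shortened, and averaged 0.566 ± 0.198 (SD, n = 5) on the log2 scale in the control arrays and 0.201 ± 0.0359 (SD, n = 5) in the treated arrays. The ranges, 0.359 to 0.859 and 0.165 to 0.249, did not overlap (two-sided exact permutation test, p = 0.00794, the smallest that 5 arrays against 5 can give, 0.0238 after Benjamini-Hochberg adjustment over 6 measures). Control arrays 4 and 3 had the highest differences, and control array 4 also correlated least with the other arrays. Its median Pearson correlation was 0.953, and the treated arrays all lay between 0.983 and 0.987. Because the ranges do not overlap, RNA quality and group cannot be told apart within these 10 arrays. Marker levels of skeletal muscle, fat, blood and parotid gland gave adjusted exact permutation p values of 0.817 each. These tests cannot show equal content: the parotid marker Amy1 had SDs of 3.20 and 2.88 in the control and treated arrays. Treated arrays 1 and 4 were low in several secretory transcripts, as described below. The labels call the arrays biological replicates without saying what each was taken from, so p values measure the spread between these samples.

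**Figure D1:**
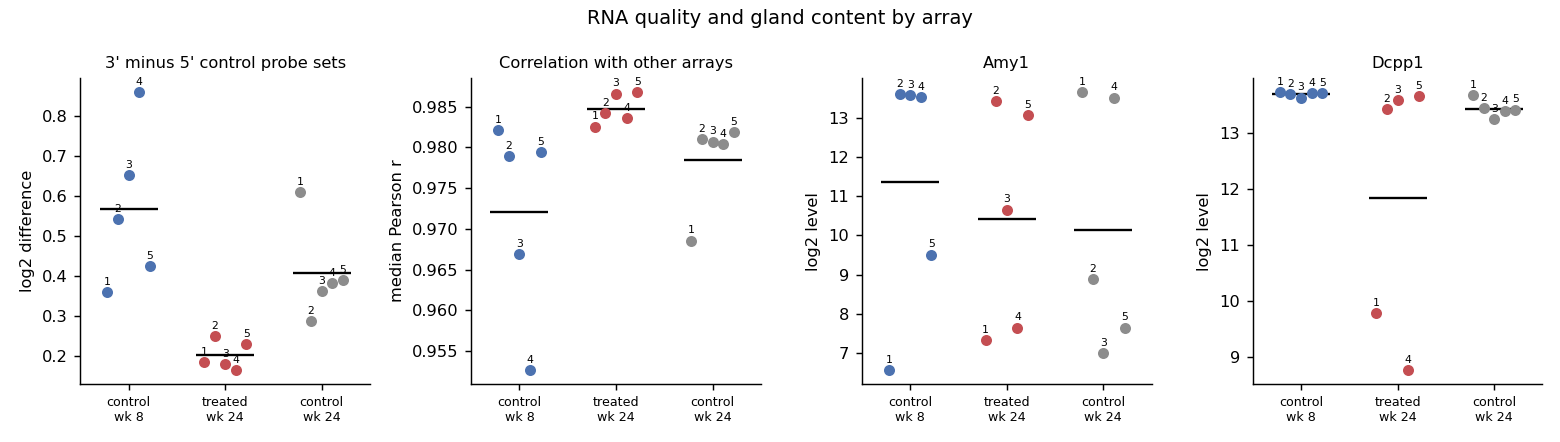
The 4 panels plot, for each array of 3 groups, the 3' minus 5' difference of control probe sets (log2), the median Pearson correlation with the other arrays, and the log2 levels of Amy1 and Dcpp1; points are arrays with their replicate numbers and lines are means. Control arrays at week 8 lie between 0.359 and 0.859 in the first panel, all above the treated arrays at 0.165 to 0.249, and treated arrays 1 and 4 are low in Amy1 and Dcpp1.

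Nearly equal shares of the genes were and were not called different. With limma and adjustment over the 12998 genes tested, 6379 genes (49.1%) had an adjusted p under 0.05, 4074 higher (31.3%) and 2305 lower (17.7%) in the treated arrays. Most of these differences were small: 579 of the called genes differed by more than 2-fold, 505 of them higher. A gene was counted as staying within 2-fold of the young control when the whole 95% interval of its difference lay between -1 and 1 on the log2 scale. This held for 10655 genes (82%), of which 4309 were also called different, and 273 genes (2.1%) were neither called nor within 2-fold and stay undecided. The median difference over all genes was 0.09, and the median standard error 0.139. Of the calls 63.9% were higher, and 45.4% after quantile normalization, which moved the median of all genes by -0.13. With the 3' minus 5' difference as a covariate 83 genes were called (0.639%), 39 higher and 44 lower, and 65 of these 83 were among the calls above in the same direction. The median standard error was then 0.183. Without control arrays 3 and 4, a choice made after the values were seen, 3142 genes were called, 2073 higher and 1069 lower. Of the genes named below with a call, Igha, Fads6 and 5530400C23Rik kept it with the covariate, and each other rise or fall below was not called in that fit. The sizes behind these lost calls differed. Jchain was 1.80 with the covariate against 0.96 without it, Igk 1.06 against 0.77, Relb 0.57 against 0.54, Prg2 1.05 against 1.02 and Chac1 -2.11 against -1.18. By contrast Pofut2 was 0.00096 against 2.48, Ly6e 0.03 against 2.06 and Cd68 0.10 against 1.06. The comparison of old controls with the same control arrays called 1103 genes higher (8.49%) and 521 lower (4.01%). It shares the control arrays, so its values are set beside the others and not counted together with them. The comparison of treated arrays with old controls called 775 genes higher (5.96%) and 454 lower (3.49%).

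Transcripts of the CD40 pathway moved in both directions and by less than 2-fold. Cd40lg, the gene of the antibody's target, lay at 4.75 to 5.10 in the control arrays and 4.52 to 4.98 in the treated arrays. These levels did not pass the filter, so it has no test. Its receptor Cd40 measured 6.31, 6.81, 6.87, 6.85 and 6.66 in control arrays 1 to 5 and 6.57, 6.25, 5.67, 6.09 and 5.86 in treated arrays 1 to 5. Treated arrays 2 to 5 lay below every control array, and treated array 1 lay above control array 1. Cd40 fell by 0.61 (95% interval -0.93 to -0.29, adjusted p = 0.00278), and the difference was -0.51 without control arrays 3 and 4 (adjusted p = 0.0448). Old controls did not differ detectably from the control arrays (-0.02, adjusted p = 0.933), and treated arrays were -0.59 relative to old controls (adjusted p = 0.0229).

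Of 10 tested members of the CD40 and NF-kB list 3 were called higher, 3 were called lower and 9 lay within 2-fold. These shares, 30%, 30% and 90%, stood beside 31.3%, 17.7% and 82% of all genes. The median difference of the list was 0.01 and became -0.13 after quantile normalization. Relb, a subunit of the non-canonical NF-kB arm, measured 5.62, 5.70, 5.85, 5.99 and 5.46 in the control arrays and 6.10, 6.26, 6.34, 6.43 and 6.18 in the treated arrays. The groups did not overlap, and Relb rose by 0.54 (adjusted p = 0.01). Nfkbia, an inhibitor that NF-kB itself induces, rose by 0.46 (adjusted p = 0.000709). Map3k14, the kinase that starts the non-canonical arm, fell by 0.56 (adjusted p = 0.00889), and this call was lost without control arrays 3 and 4 (-0.37, adjusted p = 0.142) and by the median over its probe sets (-0.20, adjusted p = 0.132). The adaptor Traf1 fell by 0.57 (adjusted p = 0.0113), and its call was lost without control array 4 alone (-0.43, adjusted p = 0.056) and without control arrays 3 and 4 (-0.45, adjusted p = 0.0915). Nfkb2, the other subunit of the non-canonical arm, was within 2-fold and not called (-0.28, 95% interval -0.64 to 0.08), and was called lower after quantile normalization (-0.52, adjusted p = 0.0311). With control arrays 3 and 4 left out, 2 members were called higher and 1 lower. In old controls 5 members were higher than in the control arrays and 0 were lower in that fit.

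Among the immunoglobulin transcripts the IgA heavy chain was above the young control in every treated array, the J chain and the kappa chain were called higher, and the IgM, IgG3 and lambda genes were not called. Igha measured 11.53, 11.38, 10.52, 10.07 and 9.76 in control arrays 1 to 5 and 12.36, 13.18, 13.24, 12.77 and 12.88 in treated arrays 1 to 5. The lowest treated array was above the highest control array. Igha rose by 2.24 ± 0.27 (SE), 4.71-fold, with an adjusted p of 6.81e-06, and stayed called with the RNA quality covariate (1.81, adjusted p = 0.0276) and without control arrays 3 and 4 (2.0, adjusted p = 0.000234). Old controls lay at 13.02, 13.40, 13.45, 13.60 and 13.54, a difference of 2.75 from the same control arrays, and the treated arrays were -0.51 relative to these old controls (adjusted p = 0.194).

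The control arrays were not the lowest group for IgA. Anti-CD40L arrays at week 8 measured 9.23, 9.32, 8.22, 9.07 and 8.96, which was -1.69 relative to the control arrays (adjusted p = 0.00291), and from there to week 24 under anti-CD40L Igha rose by 3.93. Across all genes that comparison at week 8 called 9 genes, all of them lower. Jchain, whose product joins IgA into dimers, and the kappa light chain Igk were among them, at -2.56 and -1.33 (adjusted p = 0.00018 and 0.00954).

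Jchain measured 9.71, 10.09, 10.99, 9.95 and 8.29 in the control arrays and 9.70, 11.47, 11.29, 10.48 and 10.89 in the treated arrays. Control array 5 was the lowest, and control array 3 lay above 3 of the treated arrays. Jchain rose by 0.96 (adjusted p = 0.0207), but the call was lost without control array 5 (0.58, adjusted p = 0.0993), treated array 2 (0.78, adjusted p = 0.0669) or treated array 3 (0.83, adjusted p = 0.059), and in a fit of the 10 arrays alone (adjusted p = 0.105). Igk rose by 0.77 (95% interval 0.31 to 1.24, adjusted p = 0.00744). In old controls the differences from the control arrays were 2.76 for Jchain and 2.02 for Igk.

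Ighm, the IgM heavy chain, measured 8.47, 8.97, 11.95, 8.49 and 7.64 in the control arrays and 7.76, 11.16, 7.79, 9.61 and 7.60 in the treated arrays. Control array 3 and treated array 2 were high in an otherwise low set, and the groups overlapped. Its difference was -0.32 (95% interval -1.90 to 1.25, adjusted p = 0.744), an interval too wide to place it within 2-fold of the young control. Old controls lay at 12.44, 13.28, 12.52, 12.19 and 13.39, above every treated array, with a difference of -3.98 between treated arrays and old controls (adjusted p = 0.00429). The lambda and IgG3 genes, named after their values were seen, were undecided as well, Iglv1 at 0.24 and Ighg3 at -0.54. In all, 3 of 6 tested immunoglobulin genes were called higher (50%, against 31.3% of all genes), 0 lower and 3 were undecided. Their median was 0.51 against 2.75 in old controls, where all 6 were called higher. Treated arrays were called lower than old controls in 5 of the 6.

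Of the plasma cell markers, Mzb1, Tnfrsf17, Tnfrsf13b and Prdm1 lay within 2-fold of the young control. Jchain, described above, was called higher (95% interval 0.27 to 1.65), and so was Sdc1, described below. Mzb1, a chaperone of antibody assembly, measured 7.11, 7.80, 8.88, 7.33 and 6.66 in the control arrays and 6.84, 8.43, 7.94, 7.56 and 7.62 in the treated arrays. These ranges overlapped almost fully. The difference was 0.12 (95% interval -0.59 to 0.82), within 2-fold, where old controls were 2.73 above the control arrays and treated arrays -2.62 relative to old controls. Tnfrsf17, the plasma cell receptor BCMA, differed by 0.0002 (95% interval -0.43 to 0.43), against 1.15 in old controls. Its control arrays (4.37 to 5.28) and treated arrays (4.50 to 5.42) all lay below the array medians of 5.487 to 5.537. Tnfrsf17 was tested only through arrays of other groups, among them all old controls (5.63 to 6.57). Tnfrsf13b, the receptor TACI, differed by 0.36 (95% interval -0.06 to 0.78), against 1.77 in old controls. Prdm1, the master regulator of plasma cells, differed by 0.13 and was within 2-fold too. Tnfrsf13b and Prdm1 also lay below these medians, apart from treated array 2 in Tnfrsf13b and treated array 3 in Prdm1. For Tnfrsf17, Tnfrsf13b and Prdm1, staying within 2-fold therefore compares low signals.

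Of 16 tested plasma cell genes 4 were called higher, 3 lower and 13 lay within 2-fold (81.2%, against 82% of all genes), with a median of 0.15 against 0.38 in old controls. The called members include genes that secretory epithelium also uses. Sdc1, a surface proteoglycan of plasma cells and epithelia, rose by 0.79 (adjusted p = 0.000973), though the median over its probe sets was 0.27 and not called (adjusted p = 0.102). Eaf2, a transcription elongation factor, fell by 0.76 (adjusted p = 0.00233), which was no longer called without control arrays 3 and 4 (-0.44, adjusted p = 0.0903). Without those arrays 1 member was called higher and 0 lower. Treated arrays were below old controls in 5 members and above in 0.

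**Figure D2:**
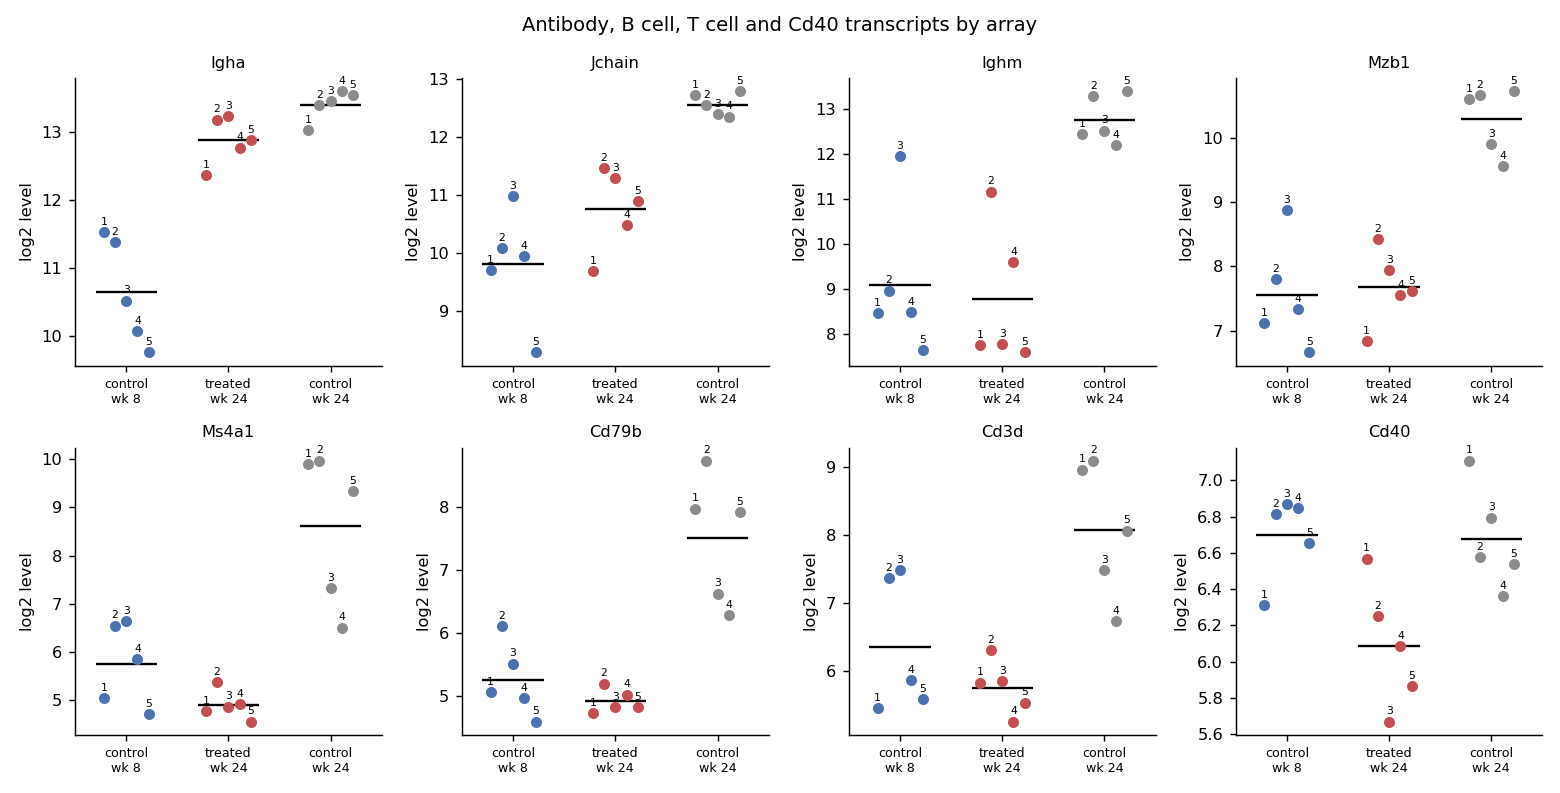
Each panel plots the log2 level of 1 antibody, B cell, T cell or receptor transcript in every array of the control week 8, treated week 24 and control week 24 groups; points are arrays with replicate numbers and lines are group means. All treated points for Igha lie above all week 8 control points, the Mzb1 and Ms4a1 points of treated and week 8 control arrays overlap, and the Ighm panel shows control array 3 at 11.95 and treated array 2 at 11.16 above the rest of their groups.

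B cell surface markers were not called higher in the treated arrays than in the young control. Ms4a1, which encodes CD20, measured 5.05, 6.55, 6.64, 5.85 and 4.72 in the control arrays and 4.78, 5.38, 4.87, 4.93 and 4.56 in the treated arrays. Control arrays 2, 3 and 4 were above all treated arrays, and control arrays 1 and 5 lay among them. All treated arrays and control arrays 1 and 5 lay below the array medians of 5.487 to 5.537. The difference was -0.86 (95% interval -2.06 to 0.34, adjusted p = 0.225), undecided by these arrays, where old controls were 2.84 above the control arrays and treated arrays -3.70 relative to old controls (adjusted p = 0.000887).

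Of the signalling chains of the B cell receptor, Cd79a was within 2-fold of the young control and Cd79b was not placed. Cd79b measured 5.07, 6.12, 5.52, 4.97 and 4.59 and 4.73, 5.20, 4.83, 5.03 and 4.82, with only control array 2 and control array 3 above all treated arrays. Its difference was -0.33 (95% interval -1.07 to 0.40), just outside the 2-fold bound, against 2.26 in old controls. The treated arrays of Cd79b and its control arrays 1, 4 and 5 lay below the array medians. Cd79a differed by -0.11 (95% interval -0.57 to 0.35) and was within 2-fold, against 1.27 in old controls. Cd22, an inhibitory B cell lectin, differed by -0.37 (95% interval -0.84 to 0.10) and was within 2-fold.

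Of 18 tested B cell genes 3 were called higher (16.7%, against 31.3% of all genes) and 2 lower (11.1%, against 17.7%). Of the 18, 12 lay within 2-fold and 3 were undecided. The share within 2-fold was 66.7%, against 82% of all genes, of which 2.1% were undecided. The median of the B cell genes was -0.09 against 0.83 in old controls. Bach2, a repressor that holds B cells back from becoming plasma cells, rose by 1.09 (adjusted p = 0.00289), and Blnk, a B cell receptor adaptor, by 0.93 (adjusted p = 0.00344). Both calls were lost without control arrays 3 and 4 (0.74 and 0.55, adjusted p = 0.0677 and 0.103). Blk, a B cell Src family kinase, measured 6.63, 6.64, 6.91, 7.29 and 6.17 in the control arrays and 5.71, 5.96, 6.02, 5.69 and 5.80 in the treated arrays, with no overlap. Blk fell by 0.89 (adjusted p = 0.000667) and stayed called without control arrays 3 and 4 (-0.64, adjusted p = 0.0243), when it was the 1 called member of the list. In old controls 12 members were higher than in the control arrays and 0 lower. Treated arrays were below old controls in 13 members and above in 1. The germinal centre list, with 4 tested members, had 0 called by limma, 1 at an unadjusted p under 0.05 and all 4 within 2-fold.

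No tested T cell gene was called higher than at the young level. Cd3d, a chain of the T cell receptor complex, measured 5.46, 7.37, 7.48, 5.87 and 5.58 in the control arrays and 5.83, 6.31, 5.85, 5.25 and 5.54 in the treated arrays. Control arrays 2 and 3 were high, and the other 3 lay among the treated arrays. Its difference was -0.59 (95% interval -1.54 to 0.36), undecided, where old controls were 1.71 above the control arrays and treated arrays -2.31 relative to old controls (adjusted p = 0.00576). Cd3g, another chain, differed by -0.04 (95% interval -1.14 to 1.06) and was also undecided. It lay below the array medians in both groups on every array but control array 3. The adhesion molecule Cd2 differed by -0.13 (95% interval -0.85 to 0.60) and was within 2-fold, against 1.57 in old controls. Apart from control array 3, Cd2 lay below the array medians in both groups, and it was tested through arrays of other groups.

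The helper T cell coreceptor Cd4 was the largest change of the T cell list. Cd4 measured 7.71, 7.64, 7.93, 8.27 and 7.71 in the control arrays and 6.13, 7.36, 6.68, 6.90 and 6.38 in the treated arrays, with every treated array below every control array. It fell by 1.16 (95% interval -1.76 to -0.56, adjusted p = 0.00232), with -1.0 without control arrays 3 and 4 (adjusted p = 0.035). Treated arrays were -0.94 relative to old controls (adjusted p = 0.0413). Old controls did not differ detectably from the control arrays in Cd4 (-0.22, adjusted p = 0.649), while Cd3d and Cd2 were called higher there. Cd4 thus differed from Cd3d and Cd2, but not from most of the list, of which 5 of 14 were called higher in old controls. Cd3e, another chain of the receptor complex, differed by 0.06 in old controls (adjusted p = 0.887). In the treated arrays Cd3e differed by -0.50 from the control arrays (adjusted p = 0.0909). Lef1, a transcription factor of naive T cells and of epithelium, fell by 0.35 (adjusted p = 0.0186), a call lost without control array 2 (-0.28, adjusted p = 0.068). Of 14 tested T cell genes 0 were called higher, against 31.3% of all genes, and 3 lower (21.4%, against 17.7%). Of the 14, 9 lay within 2-fold and 4 were undecided. The share within 2-fold was 64.3%, against 82% of all genes, of which 2.1% were undecided. The median of the T cell genes was -0.28 against 0.25 in old controls. After control arrays 3 and 4 were left out, 2 were called lower. Treated arrays were below old controls in 9 members.

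The cytotoxic T and NK cell list had 0 of 9 members called by limma and 0 at an unadjusted p under 0.05. Within 2-fold were 7 (77.8%, against 82% of all genes), and the median was 0.02. Gzmb, a granule protease, differed by 0.02 (95% interval -0.31 to 0.34), and the pore protein Prf1 by -0.21 (95% interval -0.52 to 0.09). Gzma, another granule protease, lay at 6.17, 6.08, 8.40, 6.55 and 5.63 in the control arrays and 6.07, 6.82, 6.22, 5.87 and 6.23 in the treated arrays. Control array 3 alone stood high, and the difference of -0.32 (95% interval -1.09 to 0.44) stayed undecided.

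Lymphoid chemokines and their vessel genes showed no shared direction. Cxcl13, which draws B cells into follicles, measured 7.03, 7.44, 7.95, 7.05 and 6.72 in the control arrays and 6.75, 7.81, 6.85, 6.75 and 7.25 in the treated arrays. The groups overlapped, and the difference was -0.16 (95% interval -0.94 to 0.62), within 2-fold, against 1.22 in old controls and -1.38 between treated arrays and old controls. The B cell survival factor Tnfsf13b, also called BAFF, differed by -0.19 (95% interval -0.51 to 0.13) and was within 2-fold. Ltb, the lymphotoxin that builds lymphoid tissue, differed by -0.77 (95% interval -1.57 to 0.04, adjusted p = 0.106), and it was called lower without treated array 2 (-1.03, adjusted p = 0.0362). Fut7, an enzyme that makes selectin ligands, fell by 0.48 (adjusted p = 0.00352), a call lost without control arrays 3 and 4 (-0.35, adjusted p = 0.0634). Of 9 tested members 1 was called higher (11.1%, against 31.3% of all genes) and 1 lower (11.1%, against 17.7%). Within 2-fold lay 7 (77.8%, against 82% of all genes). The median was -0.16 against 0.37 in old controls.

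MHC class II transcripts lay, by median, between the young and the old controls, and the chains that present peptides could not be placed. Cd74, the invariant chain that guides class II molecules, measured 9.95, 9.85, 10.14, 8.15 and 8.91 in the control arrays and 10.48, 11.23, 10.73, 10.50 and 9.83 in the treated arrays. Control array 4 was far the lowest, and treated array 5 lay among the control arrays. Cd74 rose by 1.15 (95% interval 0.37 to 1.94, adjusted p = 0.0154), a call lost without control array 4 (0.84, adjusted p = 0.0763) and without control arrays 3 and 4 (0.98, adjusted p = 0.077).

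The class II chains themselves were not called over all arrays. H2-Aa, the alpha chain of I-A, measured 10.44, 10.40, 11.19, 9.26 and 9.17 in the control arrays and 10.65, 11.62, 11.15, 10.87 and 10.37 in the treated arrays. Control array 3 was the highest of its group. H2-Aa, its beta chain H2-Ab1 and H2-Eb1 of I-E differed by 0.84, 0.95 and 0.83 and were not called (adjusted p = 0.0682, 0.0573 and 0.0993). Without control array 3 all 3 were called higher, at 1.12, 1.28 and 1.21 (adjusted p = 0.0213, 0.0132 and 0.016). Without treated array 5 H2-Aa and H2-Ab1 were called as well, at 0.98 and 1.10 (adjusted p = 0.0499 and 0.0416). H2-Ab1 was also called without control arrays 3 and 4 (1.22, adjusted p = 0.0459). Old controls were 1.50, 1.84 and 1.77 above the control arrays. Of 9 tested class II genes 1 was called higher (11.1%, against 31.3% of all genes) and 0 lower. Within 2-fold lay 5 (55.6%, against 82% of all genes), and 3 were undecided. The median was 0.23 against 1.42 in old controls, where all 9 were called higher.

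The promoters of these genes carry a shared set of short elements, one of which is the Y box, bound by NF-Y. The 250 bases before the start of H2-Aa (chr17:34287824-34288073, minus strand) and H2-Eb1 (chr17:34305617-34305866, plus strand) are shown, from RefSeq on build GRCm38.p6, because both chains lay near the threshold together. Capitals mark each match to CTGATTGG, searched on both strands of the 250 bases. They come from the reference genome and were not read from these mice.
H2-Aa: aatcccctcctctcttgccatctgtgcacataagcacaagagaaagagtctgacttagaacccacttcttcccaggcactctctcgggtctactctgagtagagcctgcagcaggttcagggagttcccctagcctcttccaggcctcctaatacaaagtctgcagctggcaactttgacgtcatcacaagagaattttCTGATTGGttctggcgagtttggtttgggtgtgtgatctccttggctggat
H2-Eb1: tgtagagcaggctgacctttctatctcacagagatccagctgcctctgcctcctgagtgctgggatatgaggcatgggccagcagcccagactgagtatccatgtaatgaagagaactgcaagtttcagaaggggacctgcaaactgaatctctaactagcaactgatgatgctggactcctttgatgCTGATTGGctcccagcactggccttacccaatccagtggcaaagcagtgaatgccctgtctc
The match starts 51 bases before the start of H2-Aa and 62 bases before that of H2-Eb1. The same letters were found in 1258 of 32851 promoters of this length (3.83%). H2-Oa held a match as well, and H2-DMa and H2-DMb2 held none.

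MHC class I and immunoproteasome genes were called only in the higher direction, and 10 of 12 lay within 2-fold (83.3%, against 82% of all genes). Tapbp, which loads peptides onto class I molecules, measured 9.66, 9.08, 9.04, 8.02 and 9.33 in the control arrays and 9.74, 10.05, 9.73, 9.81 and 9.99 in the treated arrays, without overlap. It rose by 0.84 (adjusted p = 0.00887), a call lost without control arrays 3 and 4 (0.51, adjusted p = 0.14). The immunoproteasome subunits Psmb8 and Psmb9 differed by -0.14 (95% interval -0.91 to 0.64) and -0.19 (95% interval -0.94 to 0.56) and were within 2-fold. Psmb9 lay at 8.49, 8.23, 10.09, 8.30 and 7.99 in the control arrays and 8.17, 9.15, 8.27, 8.24 and 8.32 in the treated arrays. Control array 3 and treated array 2 stood above the rest of their groups. Tap1, a peptide transporter, differed by 0.18 and was within 2-fold. Of 12 tested members 5 were called higher (41.7%, against 31.3% of all genes), 0 lower and 10 lay within 2-fold, with a median of 0.25 against 0.58 in old controls. Without control arrays 3 and 4, 2 were called higher.

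Of the interferon gamma response genes 0 of 13 were called by limma in either direction and 0 had an unadjusted p under 0.05. Within 2-fold lay 8 (61.5%, against 82% of all genes), and 5 were undecided. The median of the list was 0.12, and 0.84 in old controls. After quantile normalization the median was -0.09 and 2 were called lower. Cxcl9, a chemokine that interferon gamma induces, measured 5.15, 5.51, 9.92, 5.50 and 4.87 in the control arrays and 4.82, 7.61, 5.89, 4.68 and 5.10 in the treated arrays. Control array 3 and treated array 2 were high, which left a difference of -0.57 (95% interval -2.28 to 1.15). Cxcl10, a related chemokine, differed by -0.21 (95% interval -0.89 to 0.47), and the transcription factor Irf1 by 0.07 (95% interval -0.28 to 0.42). Both were within 2-fold, though Cxcl10 lay below the array medians on all but control array 3 and treated array 2.

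Of the type I interferon response genes 23.5% were called higher, a smaller share than the 31.3% of all genes. Oasl2, an antiviral effector, measured 4.75, 4.40, 4.85, 3.77 and 4.32 in the control arrays and 5.82, 7.24, 5.86, 5.99 and 7.32 in the treated arrays. All treated arrays were above all control arrays, with treated arrays 2 and 5 the highest. The control arrays all lay below the array medians of 5.487 to 5.537, so the rise starts from a low signal. Oasl2 rose by 2.03 ± 0.60 (SE), 4.08-fold (adjusted p = 0.0074), against 2.08 in old controls. The treated arrays differed from old controls by -0.05. With control arrays 3 and 4 left out the rise was 1.95 (adjusted p = 0.0453).

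Rsad2, the antiviral enzyme viperin, measured 7.45, 7.37, 8.20, 7.54 and 7.42 in the control arrays and 8.77, 8.27, 7.68, 8.51 and 8.20 in the treated arrays. The groups overlapped through control array 3. Rsad2 rose by 0.69 (adjusted p = 0.00485), and by 0.87 without control arrays 3 and 4. Its call was lost after quantile normalization (0.45, adjusted p = 0.0542) and without treated arrays 1 and 4 (0.45, adjusted p = 0.0843). Ifit1, an RNA-binding effector, differed by 1.01 (95% interval -0.02 to 2.05, adjusted p = 0.0972) and was called higher without control array 3 (1.32, adjusted p = 0.0399). Irf7, the main regulator of the response, differed by 0.37 (95% interval -0.33 to 1.07), and Ifit3 by 0.24 (95% interval -0.52 to 1.0). Of 17 tested members 4 were called higher, 0 lower, 7 lay within 2-fold (41.2%, against 82% of all genes) and 6 were undecided. The median was 0.37 against 0.89 in old controls, and 3 were called higher without control arrays 3 and 4.

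Genes of this response are switched on through interferon-stimulated response elements. The promoters of Ifit1 (chr19:34640639-34640888, plus strand) and Rsad2 (chr12:26456453-26456702, minus strand) are given for the same 250-base window and build. Both are members of the list named above that hold a match, and they do not stand for the whole list. Capitals mark matches to GAAANNGAAA or, on the other strand, TTTCNNTTTC, and N is any base.
Ifit1: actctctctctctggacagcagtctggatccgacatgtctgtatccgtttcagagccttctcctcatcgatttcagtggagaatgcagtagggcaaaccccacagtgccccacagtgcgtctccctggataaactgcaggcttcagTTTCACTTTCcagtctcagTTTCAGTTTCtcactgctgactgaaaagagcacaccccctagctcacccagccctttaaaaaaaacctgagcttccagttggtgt
Rsad2: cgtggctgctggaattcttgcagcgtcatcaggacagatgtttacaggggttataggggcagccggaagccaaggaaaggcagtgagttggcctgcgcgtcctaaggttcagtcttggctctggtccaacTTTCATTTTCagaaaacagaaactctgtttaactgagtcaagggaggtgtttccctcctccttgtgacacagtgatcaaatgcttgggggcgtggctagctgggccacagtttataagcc
Both matches of Ifit1, which start 104 and 85 bases before its start, and the match of Rsad2, 120 bases before, lie on the other strand. The element was found in 978 of 32851 promoters of this length (2.98%). Ifit3 held 2 matches and Oasl2, Irf7 and Ifit2 none in this window.

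**Figure D3:**
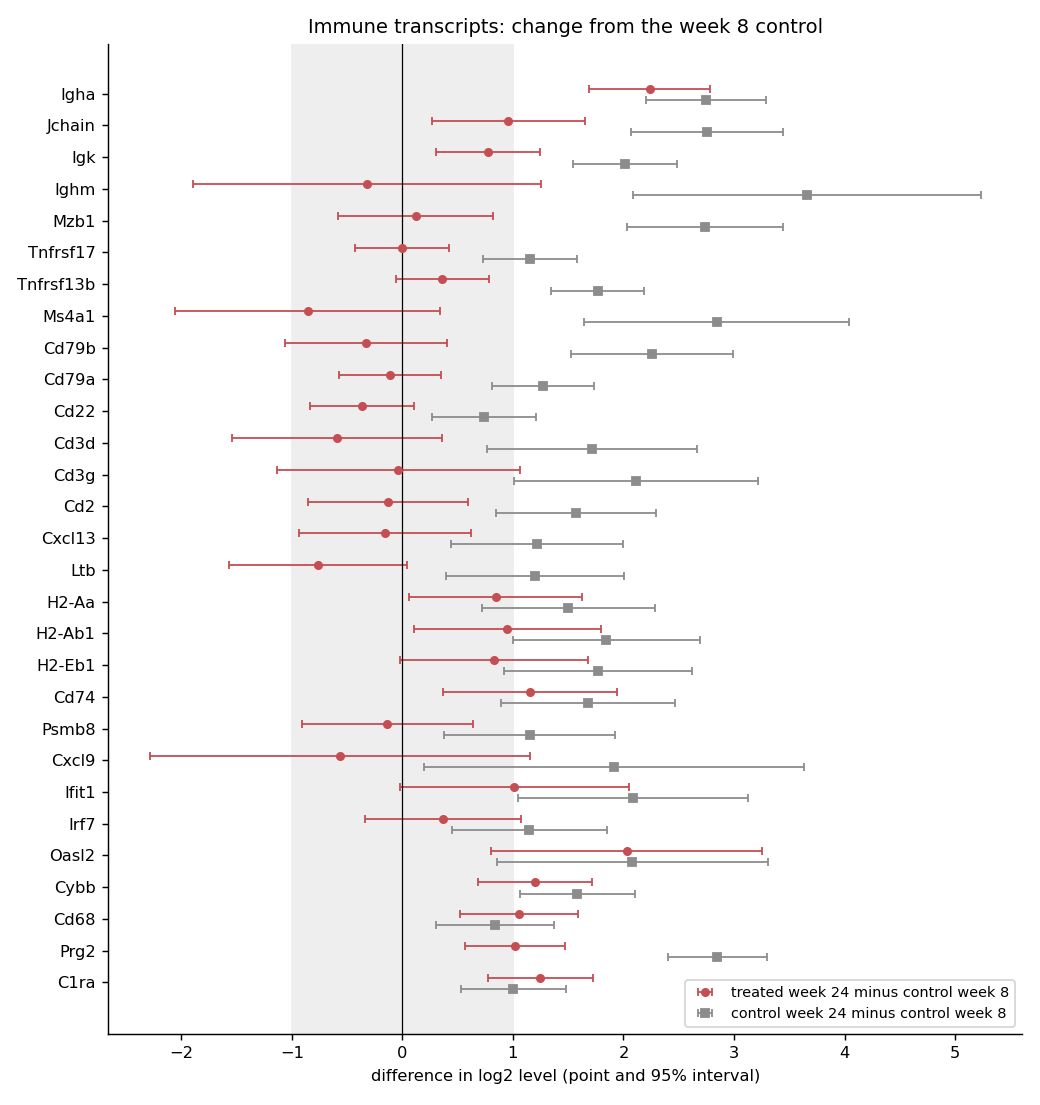
Points show the difference in log2 level from the week 8 control, for the treated arrays at week 24 and for the controls at week 24, with 95% intervals from the fit of 30 arrays; the grey band covers differences within 2-fold. For Mzb1, Tnfrsf17 and Cd79a the whole treated interval lies in the band, Igha lies above it at 2.24, and the intervals of Ighm, Ms4a1 and Cxcl9 reach well outside it.

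Macrophage genes were called higher about as often as all genes, 31.6% against 31.3%. Cybb, the oxidase subunit of phagocytes, measured 6.47, 6.01, 6.57, 5.14 and 5.65 in the control arrays and 6.79, 7.48, 7.21, 7.08 and 7.28 in the treated arrays, with no overlap. It rose by 1.20 (95% interval 0.68 to 1.72, adjusted p = 0.000583), against 1.58 in old controls, and by 1.12 without control arrays 3 and 4 (adjusted p = 0.00493). The lysosomal marker Cd68 rose by 1.06 (adjusted p = 0.00197). Tyrobp, a myeloid signalling adaptor, fell by 0.74 (adjusted p = 0.0161), a call lost without control array 3 (-0.57, adjusted p = 0.0637) and without treated arrays 1 and 4 (-0.58, adjusted p = 0.112). The defining marker Adgre1, an adhesion receptor, differed by 0.17 (95% interval -0.13 to 0.48) and was within 2-fold, and without control array 3 it was called higher (0.33, adjusted p = 0.0482). Itgax, the integrin CD11c of dendritic cells, differed by 0.08 (95% interval -0.31 to 0.46). Of 19 tested members 6 were called higher, 2 lower and 10 lay within 2-fold (52.6%, against 82% of all genes). The median was 0.33 against 0.79 in old controls. After control arrays 3 and 4 were left out, 5 were higher and 0 lower.

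Among neutrophil and eosinophil genes 1 of 10 was called higher (10%, against 31.3% of all genes) and 0 lower, against 17.7%. Prg2, the major basic protein of eosinophils, measured 3.61, 3.88, 4.09, 3.99 and 3.91 in the control arrays and 4.52, 5.10, 5.62, 4.64 and 4.69 in the treated arrays. The groups did not overlap. Prg2 rose by 1.02 (95% interval 0.57 to 1.47, adjusted p = 0.000702), where old controls rose by 2.85 and the treated arrays were -1.83 relative to old controls. Apart from treated array 3, all these control and treated values lay below the array medians of 5.487 to 5.537. Prg2 passed the filter through arrays of other groups, so its rise is one between low signals. The neutrophil calprotectin genes S100a8 and S100a9 differed by -0.34 and -0.37 and were not called. Of 5 tested complement genes 3 were called higher (60%, against 31.3% of all genes), with a median of 0.84 against 0.79 in old controls. C1ra, a protease of the classical pathway, measured 6.41, 5.71, 6.50, 5.50 and 5.65 and 7.19, 7.49, 7.55, 6.82 and 6.96 in control and treated arrays, rising by 1.25 without overlap (adjusted p = 0.000191). Its inhibitor Serping1 rose by 0.90 (adjusted p = 0.00153). The treated arrays differed from old controls by 0.24 and 0.11 in these genes (adjusted p = 0.5 and 0.767).

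Secretory acinar genes were called in both directions, 40% higher and 20% lower against 31.3% and 17.7% of all genes, and 65.0% lay within 2-fold of the young level against 82% of all genes. Aqp5, the water channel of acinar cells, measured 11.84, 11.51, 11.25, 11.17 and 11.82 in the control arrays and 11.46, 11.78, 12.02, 11.70 and 11.94 in the treated arrays, and the groups overlapped. The difference was 0.26 (95% interval -0.03 to 0.55), within 2-fold, and it was called higher without control array 1 (0.34, adjusted p = 0.0471). The chloride transporter Slc12a2 differed by 0.07 (95% interval -0.11 to 0.25), while its most variable probe set was called higher (0.66, adjusted p = 0.00762). Ano1, the calcium-gated chloride channel, rose by 0.79 (adjusted p = 0.000351), and by 0.61 without control arrays 3 and 4.

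Itpr2, a calcium release channel of acinar cells, rose and Smgc fell. Itpr2 measured 7.68, 7.19, 6.49, 5.99 and 7.53 in the control arrays and 8.76, 8.41, 8.27, 8.57 and 8.38 in the treated arrays. All treated arrays were higher, and control arrays 3 and 4 were the lowest. Itpr2 rose by 1.50 (adjusted p = 0.000236), and by 1.01 without those control arrays (adjusted p = 0.0118). Smgc, a mucin-like product of submandibular and sublingual glands, measured 12.49, 12.67, 12.75, 12.75 and 12.68 and 11.59, 11.30, 11.69, 12.11 and 12.06 in the same order. No array overlapped, and Smgc fell by 0.92 (95% interval -1.23 to -0.61, adjusted p = 7.3e-05), against -1.15 in old controls. Its most variable probe set differed by -1.43 and was not called (adjusted p = 0.144).

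Dcpp1, a protein of demilune and parotid cells, was low on 2 of the treated arrays. It measured 13.73, 13.70, 13.64, 13.72 and 13.72 in the control arrays and 9.79, 13.43, 13.59, 8.77 and 13.67 in the treated arrays. Treated arrays 1 and 4 were low and the other 3 stood near the control level. Dcpp1 fell by 1.85 (adjusted p = 0.00975) over all 5, and without treated arrays 1 and 4 the difference was -0.14 (adjusted p = 0.199). These arrays were also low in Ltf, lactoferrin, at 5.80 and 5.18 against 11.33 to 11.45 in the other 3. In all, 37 tested genes were lower by at least 2 log2 units on both arrays than on each of the other 3. Of 20 tested acinar genes 8 were called higher, 4 lower, 13 lay within 2-fold and 2 were undecided, with a median of 0.21 against -0.04 in old controls. Without control arrays 3 and 4, 2 were called higher and 2 lower.

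Parotid products could not be compared. Amy1, salivary amylase, lay at 6.58, 13.61, 13.56, 13.52 and 9.51 in the control arrays and 7.34, 13.43, 10.65, 7.65 and 13.07 in the treated arrays. Both groups held low and high arrays, several log2 units apart. The difference was -0.93 (95% interval -4.10 to 2.25), and 6 of 7 parotid products were undecided, with 0 called by limma and 0 at an unadjusted p under 0.05.

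The granular ducts store growth factors and kallikreins, and the median difference of their transcripts was 0.33. Egf, epidermal growth factor, measured 12.71, 12.61, 12.61, 12.25 and 12.69 in the control arrays and 13.30, 12.78, 13.24, 13.35 and 13.13 in the treated arrays, with no overlap and control array 4 the lowest. It rose by 0.59 (adjusted p = 0.00186) and by 0.49 without control arrays 3 and 4 (adjusted p = 0.0297). The kallikrein Klk1 differed by 0.10 (95% interval -0.02 to 0.21). Of 11 tested members 7 were called higher (63.6%, against 31.3% of all genes) and 0 lower. Within 2-fold lay 10 (90.9%, against 82% of all genes). With control arrays 3 and 4 left out, 2 were called higher. Without treated arrays 1 and 4, 4 were called higher and 1 lower. With the RNA quality covariate 0 were called by limma, 0 had an unadjusted p under 0.05, and the median was 0.04. The Klk1b genes are close copies, and the array's probes may not separate them.

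Duct and ion transport genes were called higher in 11 of 16 tested members (68.8%, against 31.3% of all genes). Foxi1, a transcription factor of ionocytes, measured 7.18, 7.35, 6.90, 6.26 and 7.31 in the control arrays and 8.58, 7.98, 8.51, 8.82 and 8.18 in the treated arrays. The lowest treated array was above the highest control array. Foxi1 rose by 1.41 (95% interval 0.96 to 1.87, adjusted p = 4.76e-05), and by 1.13 without control arrays 3 and 4 (adjusted p = 0.00211). Old controls lay at 6.68, 7.98, 7.14, 7.09 and 6.89, 0.16 from the control arrays, and the treated arrays were 1.26 above old controls (adjusted p = 0.00217).

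Esrrg, a nuclear receptor of cells rich in mitochondria, rose by 0.98 (adjusted p = 0.000881), though the median over its probe sets was 0.50 and not called (adjusted p = 0.199). Scnn1a and Scnn1g, subunits of the epithelial sodium channel, rose by 0.57 and 0.74 (adjusted p = 0.00148 and 0.00334). Cftr, the chloride channel of duct cells, differed by 0.61 (95% interval -0.04 to 1.26) and was called higher without treated array 2 (0.92, adjusted p = 0.0119). Of the 16 members 1 was called lower and 8 lay within 2-fold (50%, against 82% of all genes). The median was 0.56 against 0.10 in old controls. After control arrays 3 and 4 were left out, 4 were called higher and 1 lower, with a median of 0.29. With the RNA quality covariate the median was -0.07.

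Myoepithelial and smooth muscle genes rose in 9 of 13 tested members (69.2%, against 31.3% of all genes) and fell in 0. The median was 0.53 against 0.59 in old controls. Myh11, smooth muscle myosin, measured 8.14, 7.49, 6.77, 6.39 and 7.79 in the control arrays and 8.62, 8.66, 8.83, 8.72 and 9.13 in the treated arrays. The treated arrays were all higher and lay closer together than the control arrays. Myh11 rose by 1.48 (adjusted p = 0.000457), Smtn, smoothelin, by 1.27 (adjusted p = 0.000129), and the myosin kinase Mylk by 1.18 (adjusted p = 5.73e-05). The basal keratin Krt5 differed by 0.15 (95% interval -0.05 to 0.36) and was within 2-fold, while Krt14 rose by 0.53 (adjusted p = 0.00168). Without control arrays 3 and 4, 7 were called higher.

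**Figure D4:**
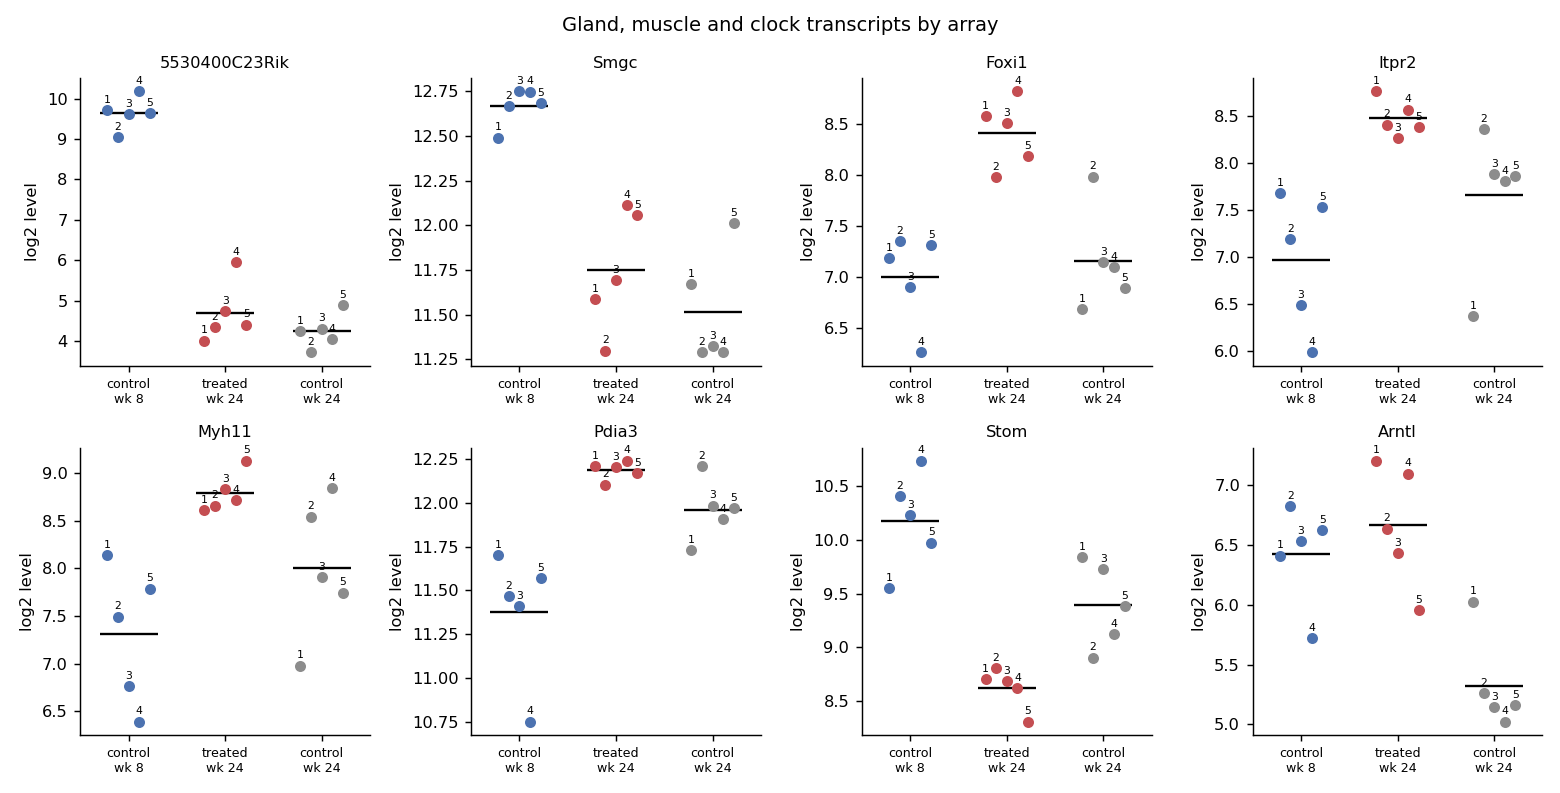
Each panel plots the log2 level of 1 gland, muscle or clock transcript in every array of the control week 8, treated week 24 and control week 24 groups; points are arrays with replicate numbers and lines are group means. 5530400C23Rik and Smgc are lower and Foxi1, Itpr2, Myh11 and Pdia3 higher in all treated arrays than in all week 8 control arrays, and for Arntl those groups overlap.

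The chaperones of the secretory pathway were a little higher in the treated arrays. Pdia3, a disulfide isomerase of the endoplasmic reticulum, measured 11.70, 11.47, 11.41, 10.75 and 11.57 in the control arrays and 12.21, 12.11, 12.21, 12.24 and 12.17 in the treated arrays. The treated arrays lay close together, above every control array. Pdia3 rose by 0.81 (95% interval 0.55 to 1.06, adjusted p = 4.33e-05), and by 0.61 without control arrays 3 and 4 (adjusted p = 0.000721). Hspa5, the chaperone BiP, rose by 0.33 (adjusted p = 0.00103), and the stress factor Ddit3 differed by -0.0016 (95% interval -0.23 to 0.23). Chac1, a glutathione-degrading enzyme induced by that stress, fell by 1.18 (adjusted p = 0.0139), and was not called without treated arrays 1 and 4 (-0.83, adjusted p = 0.131). Of 17 tested members of the unfolded protein response list 9 were called higher, 2 lower and 14 lay within 2-fold. The share called higher was 52.9%, against 31.3% of all genes. Without control arrays 3 and 4, 7 were called higher and 2 lower. In the glutathione list 5 of 9 members were called higher (55.6%, against 31.3% of all genes) and 0 lower. Gsr, glutathione reductase, rose by 0.75 (adjusted p = 0.000428).

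Cell division genes were mostly not called. Mki67, a marker of cycling cells, measured 6.38, 6.75, 6.52, 6.83 and 6.54 in the control arrays and 6.47, 7.67, 6.76, 6.71 and 7.05 in the treated arrays, with treated array 2 the highest. The difference of 0.33 (95% interval -0.58 to 1.24) was undecided. Of 21 tested members 2 were called higher (9.52%, against 31.3% of all genes) and 1 lower (4.76%, against 17.7%). Within 2-fold lay 11 (52.4%, against 82% of all genes). Undecided were 8, where 2.1% of all genes were undecided, so many members were not placed. Without control arrays 3 and 4, 0 were called. Among imprinted growth genes 7 of 12 were called higher (58.3%, against 31.3% of all genes) and 1 lower. Dlk1, a fetal growth regulator, rose by 1.34 (adjusted p = 0.000645), and by 0.90 without control arrays 3 and 4. Peg3, a paternally expressed zinc finger gene, fell by 0.79 (adjusted p = 0.00182), against -1.30 in old controls, and was not called without treated arrays 1 and 4 (-0.49, adjusted p = 0.0514). Igf2, the fetal growth factor, differed by 0.08 (95% interval -0.11 to 0.27).

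Stromal genes rose in part. Pdgfra, the fibroblast receptor for PDGF, measured 8.46, 8.17, 8.23, 8.32 and 8.27 in the control arrays and 9.46, 9.06, 9.59, 9.33 and 9.17 in the treated arrays. No array overlapped. Pdgfra rose by 1.03 (95% interval 0.70 to 1.36, adjusted p = 4.65e-05), and the treated arrays were 0.74 above old controls (adjusted p = 0.00819). The median over its probe sets differed by 0.18 and was not called (adjusted p = 0.261). The collagen gene Col1a2 rose by 1.06 (adjusted p = 0.00112), and the small proteoglycan Bgn by 1.33 (adjusted p = 0.000321). Of 21 tested fibroblast and matrix genes 11 were called higher (52.4%, against 31.3% of all genes) and 2 lower. The median was 0.50 against 0.14 in old controls, and treated arrays were above old controls in 5 members. With control arrays 3 and 4 left out, 6 were higher and 0 lower. Pecam1, an endothelial adhesion molecule, rose by 0.89 (adjusted p = 0.000458), while the VEGF receptor Kdr differed by -0.04 (95% interval -0.30 to 0.22). In the endothelial list 5 of 9 were called higher (55.6%, against 31.3% of all genes) and 0 lower. After control arrays 3 and 4 were left out, 1 was called higher.

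The core clock gene Arntl was within 2-fold of the young level. It measured 6.41, 6.83, 6.53, 5.72 and 6.62 in the control arrays and 7.21, 6.64, 6.43, 7.10 and 5.96 in the treated arrays, which overlapped. The difference was 0.24 (95% interval -0.40 to 0.88), within 2-fold, while old controls were -1.10 relative to the control arrays (adjusted p = 0.0222) and treated arrays 1.34 relative to old controls (adjusted p = 0.0115). No source used here gives the hour at which glands were taken, and its part was not tested. Bhlhe40, a clock repressor, rose by 1.17 (adjusted p = 0.000289), and the period gene Per2 differed by 0.07 (95% interval -0.29 to 0.42). The most variable probe set of Per2 was called higher (0.98, adjusted p = 0.00842). Of 18 tested clock genes 5 were called higher, 0 lower and 12 lay within 2-fold (66.7%, against 82% of all genes).

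The remaining lists are given as counts. Of 4 tested mast cell genes 3 were called higher (75%, against 31.3% of all genes), and 0 without control arrays 3 and 4. Of 5 adipocyte and 6 skeletal muscle genes 0 were called by limma, 1 and 0 at an unadjusted p under 0.05, and of 2 red blood cell genes 1 was called lower. Over the 28 lists with at least 5 tested members, and by median, the parotid products lay lowest at -0.93 and the complement genes highest at 0.84. Read against the 31.3% of all genes called higher, the shares of the duct, myoepithelial, granular duct, fibroblast, endothelial, imprinted, glutathione, unfolded protein and complement lists were between 52.4% and 69.2%. With the RNA quality covariate limma called 0 of the 113 tested entries of these 9 lists, 22 at an unadjusted p under 0.05, and their medians were between -0.07 and 0.41. The medians of the duct, glutathione, imprinted and endothelial lists were then below 0. Those of the plasma cell, macrophage, CD40 and clock lists lay between 25.0% and 31.6%, near that background. The T cell, B cell and plasma cell shares called lower, 21.4%, 11.1% and 18.8%, stood beside 17.7% of all genes. After control arrays 3 and 4 were left out all genes were called higher in 15.9% and lower in 8.22%, and the shares called higher in those first 9 lists were between 11.1% and 53.8%.

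**Figure D5:**
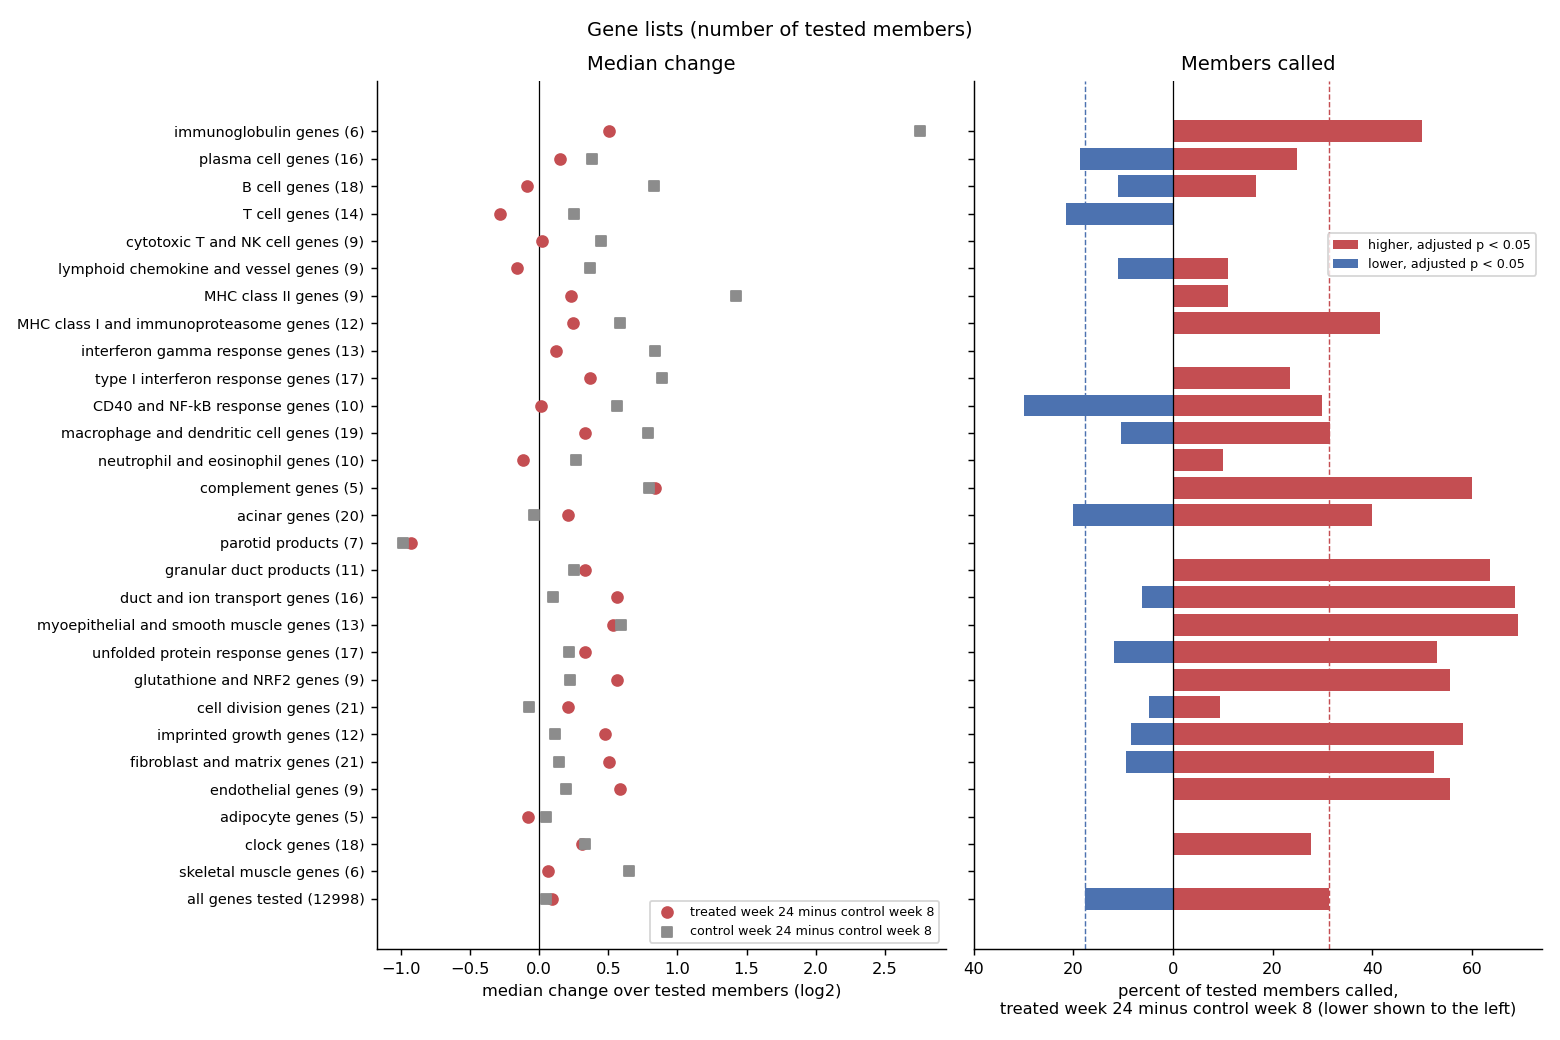
The left panel plots the median difference in log2 level over the tested members of each list, for treated week 24 and for control week 24 against the same week 8 controls, with the number of members in brackets; the right panel plots the percent of members called higher (right) and lower (left) in the treated arrays, and dashed lines mark the 31.3% and 17.7% of all genes. Immunoglobulin, B cell and MHC class II medians lie at 0.51, -0.09 and 0.23 in treated arrays against 2.75, 0.83 and 1.42 in old controls, while the complement medians lie at 0.84 and 0.79.

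Among the 10 largest rises and the 10 largest falls were genes that belong to none of the immune lists. 5530400C23Rik, a protein-coding gene by its RefSeq annotation, measured 9.72, 9.05, 9.62, 10.18 and 9.64 in the control arrays and 4.01, 4.34, 4.73, 5.96 and 4.40 in the treated arrays. Every treated array was far below every control array. It fell by 4.95 ± 0.48 (SE), 30.9-fold, with an adjusted p of 7.43e-07, and was -5.40 in old controls. With the RNA quality covariate the difference was -4.72 (adjusted p = 0.00664). Fads6, a fatty acid desaturase family gene, measured 6.02, 5.59, 5.77, 4.70 and 6.0 in the control arrays and 8.04, 7.42, 7.93, 8.28 and 7.52 in the treated arrays. No array overlapped, and Fads6 rose by 2.22 (95% interval 1.68 to 2.77, adjusted p = 7.5e-06), against 1.07 in old controls and 1.15 between treated arrays and old controls (adjusted p = 0.0115). It stayed called with the covariate (1.01, adjusted p = 0.0471).

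Several of the other large rises had their lowest values on control arrays 3 and 4. Nfix, a transcription factor, measured 10.08, 9.57, 7.48, 7.03 and 10.05 in the control arrays and 11.28, 11.00, 11.36, 11.45 and 11.13 in the treated arrays. Control arrays 3 and 4 stood more than 2 log2 units below the other control arrays. Nfix rose by 2.40 (adjusted p = 0.0017), and without those arrays the difference was 1.34 (adjusted p = 0.0756). Pofut2, an enzyme that adds fucose to proteins, rose by 2.48 (adjusted p = 0.00578), and its call was lost in the same way (1.45, adjusted p = 0.14). The deubiquitinase Usp2 rose by 2.28 (adjusted p = 0.00156), the surface protein Ly6e by 2.06 (adjusted p = 0.000473), the sphingomyelin synthase Sgms2 by 2.04 (adjusted p = 7.06e-05) and Lonrf1 by 2.02 (adjusted p = 1.37e-05). These 4 remained called without control arrays 3 and 4, at 1.75, 1.27, 1.53 and 1.88.

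Among the other large falls, Stom, a membrane scaffold protein, measured 9.55, 10.40, 10.23, 10.74 and 9.97 in the control arrays and 8.70, 8.81, 8.69, 8.62 and 8.31 in the treated arrays. The groups did not overlap, and Stom fell by 1.55 (adjusted p = 1.37e-05), but the median over all probe sets of Stom differed by -0.03. Vwc2, a secreted BMP regulator, fell by 1.75 (adjusted p = 6.43e-05), and Bzw2 by 1.55 (adjusted p = 7.25e-05). Both stayed called without control arrays 3 and 4, at -1.38 and -1.38. Zfp931, a zinc finger gene, and the predicted genes Gm9222 and Gm3715 fell by 1.59, 1.94 and 1.62. Sval2 fell by 1.83 (adjusted p = 0.00196), a call lost without those control arrays (-1.20, adjusted p = 0.0651). Ttr, the thyroid hormone carrier transthyretin, fell by 1.66 (adjusted p = 0.0175), and its call was lost without control array 4 (-1.49, adjusted p = 0.0527) or treated array 3 (-1.42, adjusted p = 0.0532).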

How the data were processed

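Total salivary gland RNA of 30 mouse samples, 6 groups of 5, was measured on Affymetrix whole-genome mouse arrays. The authors deposited log2 values, read as such from their range of 2.757 to 14.457, with medians of 5.487 to 5.537 per array. Limma is named in the submitters' processing notes. Summarisation and normalization of the probes are not given in the sources used here, and no further normalization was applied.

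Of 45101 probe sets 34958 had exactly 1 gene symbol, 932 had several and 9211 had none here. Where several probe sets shared 1 of the 18193 symbols, the brightest on average was kept. The filter required a value over the array's own median on 5 or more of the 30 arrays, whichever their group. A gene low in both compared groups could thus be tested through other groups. The filter passed 12998 genes. These were fitted on all 30 arrays by limma 3.58.1 (R 4.3.3), each group having its own mean, with Benjamini-Hochberg adjustment over the genes tested and a threshold of 0.05. The 3' minus 5' difference and gland content were compared with two-sided exact permutation tests over the 252 splits of 10 arrays.

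The members and the gene lists were chosen with earlier results of these data known. Of 497 names in 31 lists 436 had a probe set and 361 were tested; they are described by counts and medians. Genes were named by rule: Cd40lg and Cd40, the 10 largest rises and falls, and from each list its first 4 tested members and up to 3 further called ones, from which the text takes a selection; Iglv1 and Ighg3 were added after their values were seen. A kappa light chain variable gene that the rule names among the 10 largest rises is not reported here, though it enters each count over all genes. Same-numbered replicates did not deviate together (correlations between -0.12 and 0.17), so arrays were not paired. The scripts were tested on simulated data. Alternatives were other scalings, filters and probe set rules, covariates, array weights, a replicate block and leaving out arrays.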

Additional observations from a re-analysis of the deposited data

Results flagged for a closer look

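In each group of 5 arrays the gap between the extreme array and its nearest neighbour was divided by the whole range of the group, and a share above 0.71 was marked. Chance marks about 1 in 20 groups, and 14 of the 242 groups examined were marked. No explanation was tested.

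Control array 3 was apart from the other control arrays in 4 genes, all toward higher values. The share was 0.873 for the chemokine Cxcl9 (9.92 against 5.51 on the next array), 0.764 for the immunoproteasome subunit Psmb9, 0.789 for the antiviral enzyme Rsad2 and 0.716 for the macrophage marker Adgre1. Control array 4 was apart toward lower values in Egf (0.773) and Esrrg (0.723), and it had the highest 3' minus 5' difference. Control array 1 was apart in Krt14 (0.741).

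Treated array 2 was apart in 4 measures. Its share was 0.868 for Psmb8 and 0.852 for Psmb9, both higher, and 0.721 for Cftr, which was lower. The mean of the skeletal muscle genes was also higher there (0.807), at 6.64 against 5.61 on the next array. Treated array 1 was apart toward lower values in Pofut2 (0.919) and Prf1 (0.858), and treated array 3 toward higher values in Col1a2 (0.885).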

How the results depend on the processing

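The count of 6379 called genes stayed within 1.5 times under each alternative except a pair. With the 3' minus 5' difference as a covariate 83 genes were called, 39 higher and 44 lower, and without control arrays 3 and 4 3142 were called, 2073 higher and 1069 lower. Leaving out 1 array at a time gave between 4818 calls, without control array 4, and 6950, without control array 1. The count within 2-fold, 10655, ranged from 7259 with a filter at the 70th percentile to 15815 without a filter. Each count stayed within 1.5 times, but both these settings also change how many genes were tested. With the replicate block 6236 genes were called; replicate numbers did not pair the arrays, only number 2 correlating best with its own number, and the block changed no call among the 116 named genes. The 9 calls at week 8 became 4 with the block and 4 with the median over probe sets. With the covariate 4 called genes changed sign without being called, Traf1 to 0.026, Blnk to -0.17, Tapbp to -0.20 and Nfix to -0.35, and 59 more of the 116 lost their call. Without treated arrays 1 and 4 Ltf was called higher, at 2.05 (adjusted p = 0.00372), where all arrays gave -0.31. Of the 66 named calls 60 held in each of the 10 fits without 1 array. The cause of these differences was not tested. The number of arrays, 5 in each group, limits the precision.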
